A study of Daphnia magna with 48 samples.

Results

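The 100 transcripts described here are those whose abundance differed most between replicate pools of *Daphnia magna* that had been reared and treated alike. They were chosen from read counts, by the rule that follows. Of the 6050 transcripts, 2442 had 480 or more reads over all pools, and the 30 most-read transcripts were left out, which left 2412 eligible transcripts. Abundance was taken as log2(CPM + 10), where CPM is the count scaled to the total reads of the pool, and the mean of the group of 3 replicate pools was subtracted from each value. The standard deviation (SD) of what remained was computed in each of the clones IL, GB and HU, and the transcripts were ranked by the smallest of their 3 SDs. The first 100 of the 2412 were taken. The clone FI was not used for the ranking.

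The pools came from 4 clones. FI (FI-FSP1-16-2) and IL (IL-M1-8) originated in small waters that dry in summer (intermittent habitats), whereas GB (GB-EL75-69) and HU (HU-K-6) originated in larger and more permanent lakes. Each clone is a single asexual genotype. Every clone was reared to the age of 25 days either in normoxia (8 mg O2/L) or in chronic mild intermittent hypoxia (CMIH, drops to 4 mg O2/L), and was then sampled either as control or after 12 h of acute severe hypoxia (ASH, 1 mg O2/L). Controls were held in the same kind of flask without food. Each of the 16 groups had 3 pools, and each pool was a whole-body homogenate of 2 adult females, named here by the number that ends its label. CMIH was applied to whole tanks. Libraries were made and run separately for every clone, and clone and sequencing run therefore cannot be told apart. By the study's methods, the pools of a clone were spread over 3 replicate libraries with all 4 treatments in each, but the labels do not say which pools shared one.

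Adult *Daphnia* females live in repeated cycles in which the old carapace is shed, a clutch of eggs passes into the brood chamber and the young of the previous clutch are released. In arthropods, genes of the cuticle and of yolk are known to be switched on and off in the course of such cycles. The labels give neither molt stage nor brood stage for any pool. In homogenates of whole animals, fewer cells of a type and less RNA per cell cannot be told apart. The files name transcripts by contig and gene model only, 0 of them matched a RefSeq gene, and the roles of the 100 transcripts and the labelled tissue could not be checked. Transcripts are therefore given as contig and gene number, so that 36F4.51 is maker-falcon_000036F-snap-gene-4.51-mRNA-1 (gene 4.51 of contig 36F).

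Total reads per pool ranged from 16894 to 408355, with a median of 45529 for FI, 262588 for IL, 260268 for GB and 74506 for HU. A count of 0 allows up to 3 reads, which is 7.35 CPM in the deepest pool and 178 CPM in the shallowest. Replicate pools of a group were distinct libraries, since their counts differed by 2.67 to 23.5 times the sampling variance (chi-square per degree of freedom, 48 pairs). The median biological coefficient of variation estimated by edgeR was 1.34 for the 100 transcripts and 0.30 for the eligible ones.

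The transcript with the largest spread was 36F4.51, with 24036 reads in all. In the HU normoxia controls it had 22.9 CPM in pool 4, 8693 CPM in pool 5 and 16.7 CPM in pool 6. In IL under CMIH and ASH it had 6740, 5403 and 3.72 CPM in pools 4, 5 and 6. Replicates thus differed by orders of magnitude. In GB the normoxia controls were alike, at 5888, 6068 and 4733 CPM, whereas the normoxia ASH pools had 2.62, 9843 and 5662 CPM. The range of 36F4.51 over the 12 pools of a clone was 137 to 8342 CPM in FI (median 3209), 3.72 to 6740 CPM in IL (median 3925), 2.62 to 9843 CPM in GB (median 3675) and 0 to 8693 CPM in HU (median 44.0). All 4 clones reached a similar highest level, and FI alone had no pool below 100 CPM.

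The smallest SD of 36F4.51 was 3.59 on the log2 scale. It was followed by 73F1.71 with 3.09, 36F6.62 with 2.96, 36F4.52 with 2.94 and 36F4.43 with 2.88. The last transcripts inside the limit were 23F9.40 with 1.67 and 5F23.72 with 1.66, and the first outside were 22F13.114 with 1.65 and 3F42.228 with 1.64, so that the limit of 100 falls within a continuum. The median smallest SD of the eligible transcripts was 0.34. These spreads chose the transcripts and are given as a description.

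FI was the check on the choice. The SD in FI had a median of 1.43 over the 100 transcripts and 0.90 over the 2412 eligible ones. Counting error alone would give a median SD of 0.58 for the 100 in the shallow FI libraries, and their SD was 2.55 times their counting error at the median, against 1.43 times for the eligible transcripts. Of the 100, 97 lay above the eligible median in FI and 33 above 1.57, the SD that 10% of the eligible transcripts exceeded. The lowest SD in FI was 0.54, of 36F2.10, and the highest was 2.65, of 18F7.59.

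**Figure D1:**
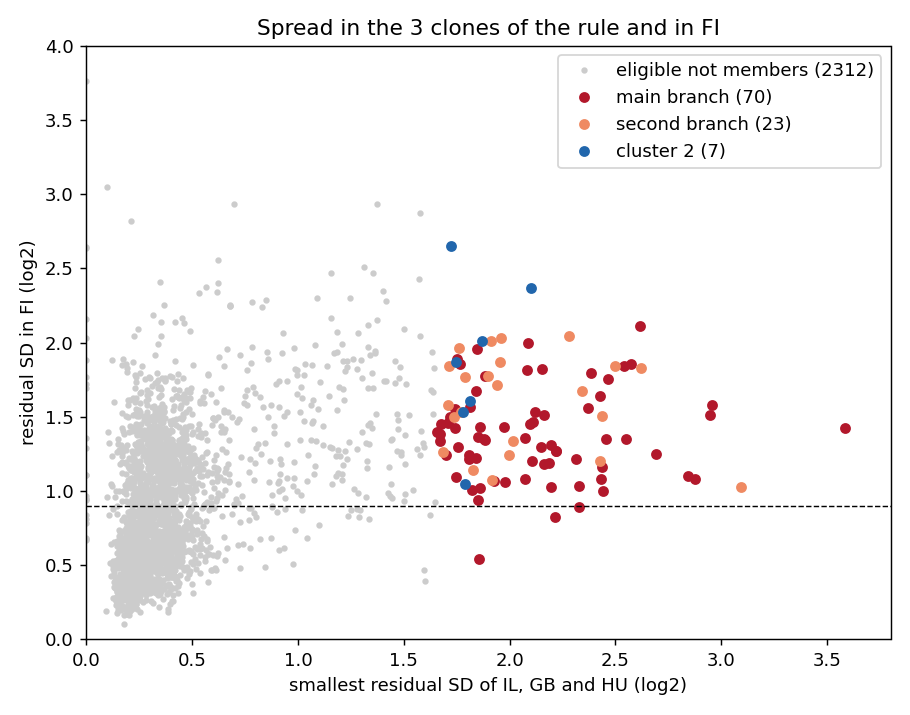
Residual SD of each eligible transcript in FI (vertical axis, log2) against the smallest of its SDs in IL, GB and HU (horizontal axis, log2), with the 100 transcripts in colour and the dashed line at the eligible median in FI of 0.90. The 100 lie right of 1.65 by choice, and 97 of them lie above the line.

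The 100 transcripts were divided by average-linkage clustering of 1 minus their correlation, averaged over IL, GB and HU, at the height where the mean correlation between branches is 0. This gave cluster 1 with 93 transcripts and cluster 2 with 7, and none was unplaced. Below a height of 0.3, which was chosen after the tree was seen, cluster 1 consisted of a main branch of 70 transcripts and a second branch of 23. The members of the main branch rose and fell together. The median Pearson correlation of residuals between pairs in the main branch was 0.90 in IL, 0.94 in GB and 0.88 in HU (12 pools each, 8 residual degrees of freedom), and it was 0.54 in FI. In the second branch it was 0.89 in IL, 0.91 in GB, 0.79 in HU and 0.64 in FI. Among eligible transcripts outside the 100, the median was between 0.01 and 0.03 in every clone. Pairs share their library, its depth and a constant total, and the correlations in IL, GB and HU made the clusters.

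**Figure D2:**
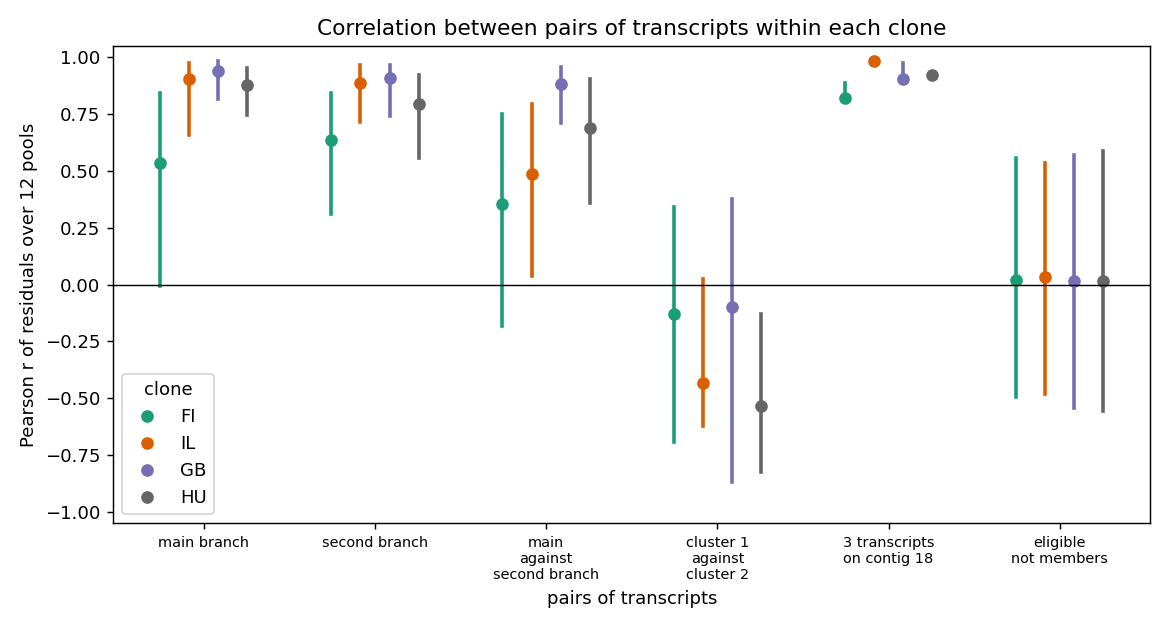
Pearson r of residuals over the 12 pools of a clone for pairs of transcripts (dots: median, lines: the range without the lowest 10% and the highest 10% of pairs), by clone. Pairs within a branch lie near 0.9 in IL and GB and lower in FI, pairs of cluster 1 with cluster 2 have medians below 0, and other eligible transcripts centre on 0.

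The first axis of the residuals held 72.2% of the variance of the 100 transcripts in IL, 87.2% in GB, 78.0% in HU and 43.9% in FI, compared with 30.5%, 45.1%, 39.3% and 25.1% among the eligible transcripts outside the 100. On this axis all 93 transcripts of cluster 1 had one sign in each of IL, GB and HU. Of the 7 transcripts of cluster 2, 7, 4 and 7 had the other sign there. On the first axis of FI, which had no part in the clustering, 89 of the 93 transcripts of cluster 1 had one sign and 5 of the 7 of cluster 2 had the other. The covariation of cluster 1 was therefore also present in FI, in a weaker form.

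The map of deviations shows whole pools in which the members of cluster 1 were low together, among them IL normoxia control 9, IL CMIH ASH 6, GB normoxia ASH 1, GB CMIH control 10 and HU normoxia control 6. These low pools did not share a rearing or an acute treatment.

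**Figure D3:**
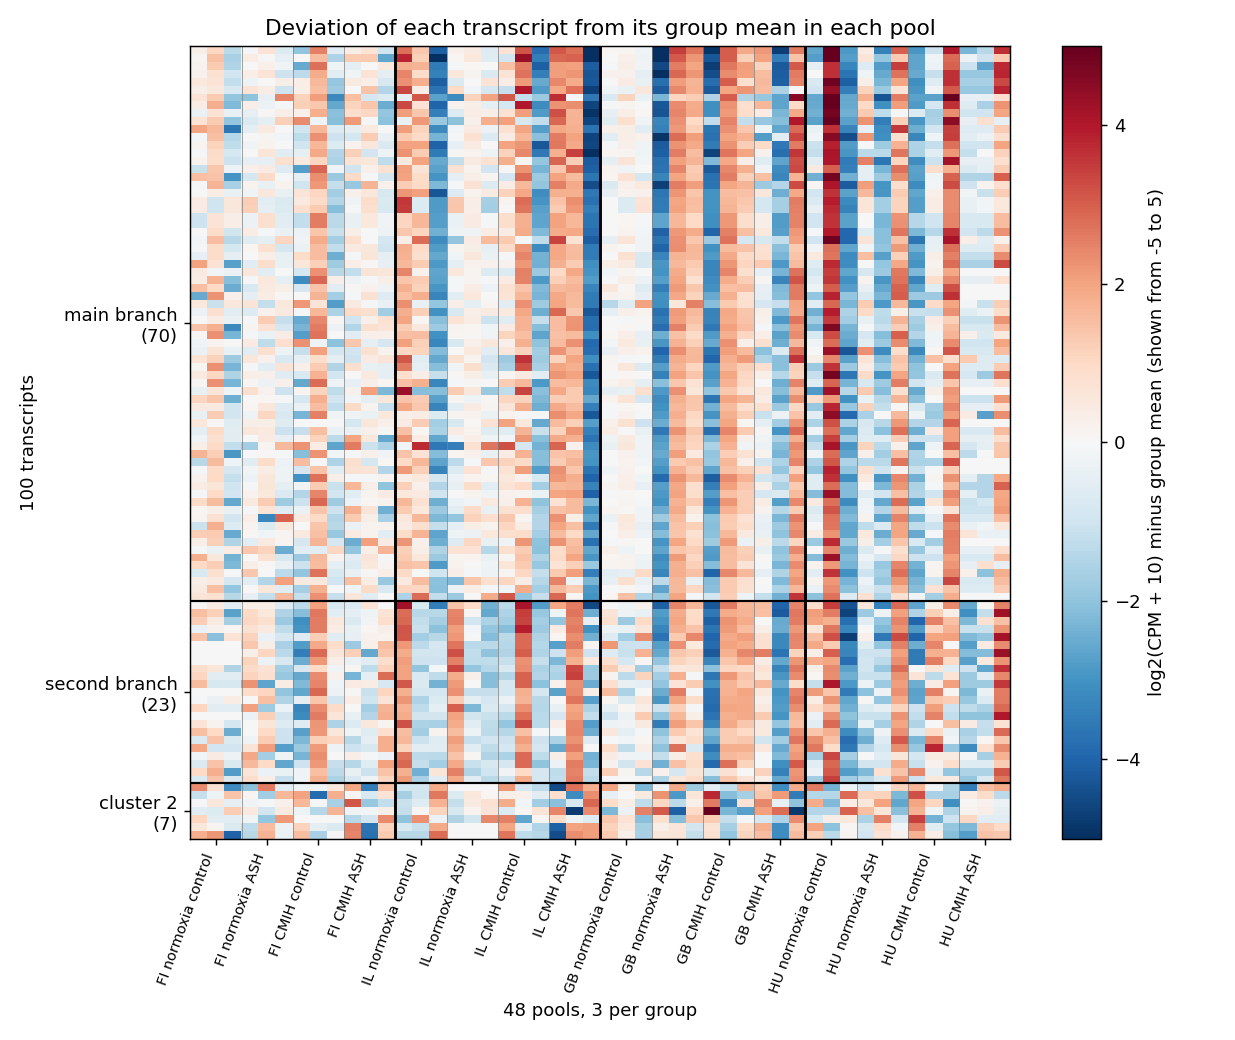
Deviation of log2(CPM + 10) from the group mean for the 100 transcripts (rows, by branch) in the 48 pools (columns, 3 per group), with red above and blue below the group mean and the colour range ending at -5 and 5. The columns are of one colour over most of the main branch, the second branch follows them in GB and departs from them in several IL pools, and part of cluster 2 has the opposite colour.

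The transcripts that followed the common pattern of cluster 1 most closely were 6F30.117, 0F40.37, 0F40.29, 15F13.52 and 6F30.100. The residuals of 6F30.117 correlated with the mean of the other members at 0.99 in IL, 0.98 in GB, 0.98 in HU and 0.85 in FI. For 15F13.52 the values were 0.97, 0.99, 0.97 and 0.93. In IL, 0F40.37 had 882, 331 and 23.4 CPM in the normoxia controls, 740, 499 and 221 CPM in the normoxia ASH pools, 179, 853 and 26.2 CPM in the CMIH controls and 432, 1135 and 0 CPM in the CMIH ASH pools. It was lowest in the same 3 IL pools as 36F4.51, which had 39.1, 28.8 and 3.72 CPM there. The member of cluster 1 added last by the ranking, 5F23.72, followed the pattern in GB with 0.76 and in HU and FI with 0.69 and 0.70, but in IL with only 0.29.

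The reads of cluster 1 together made up between 0.0284% and 11.7% of a pool, with a median of 4.56% over the 48 pools. In 13 pools the share was under 1% and in 20 it was over 5%. The highest share of a group was between 1.27 and 411 times its lowest, with a median of 17.2, and was more than 10 times the lowest in 9 of the 16 groups and less than 2 times in 4. Both extremes of the series were replicates of each other. In the HU normoxia controls, cluster 1 took 11.7% of the reads in pool 5 (8766 of 75230, 95% Wilson interval 11.4 to 11.9%), 1.13% in pool 4 and 0.0284% in pool 6 (17 of 59899, 0.0177 to 0.0455%). In pool 6, 84 of the 93 transcripts had no read. The intervals cover counting error only.

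In most pools the main branch gave the larger part of these reads. In FI its share was 2.67, 5.12 and 1.22% in the normoxia controls, 4.69, 5.86 and 4.79% in the normoxia ASH pools, 1.09, 3.55 and 0.401% in the CMIH controls and 4.33, 4.10 and 2.09% in the CMIH ASH pools. No FI pool fell to the lowest levels of the other clones. In IL the shares were 6.34, 5.66 and 0.562% in the normoxia controls, 5.65, 8.18 and 8.15% after ASH in normoxia, 2.86, 4.60 and 0.550% in the CMIH controls and 8.50, 6.38 and 0.0483% after ASH in CMIH. One pool in each of 3 IL groups stood far below its replicates. In GB the normoxia controls held 5.22, 7.20 and 5.78%, while the normoxia ASH pools held 0.0590, 6.83 and 4.19%, the CMIH controls 0.0537, 4.91 and 2.88%, and the CMIH ASH pools 1.08, 0.217 and 4.16%. In HU, by contrast, low pools were in the majority. The shares there were 0.336, 10.1 and 0.0234% in the normoxia controls, 0.909, 0.0634 and 1.95% after ASH in normoxia, 0.0939, 0.442 and 4.57% in the CMIH controls and 0.0538, 0.0375 and 0.757% after ASH in CMIH.

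**Figure D4:**
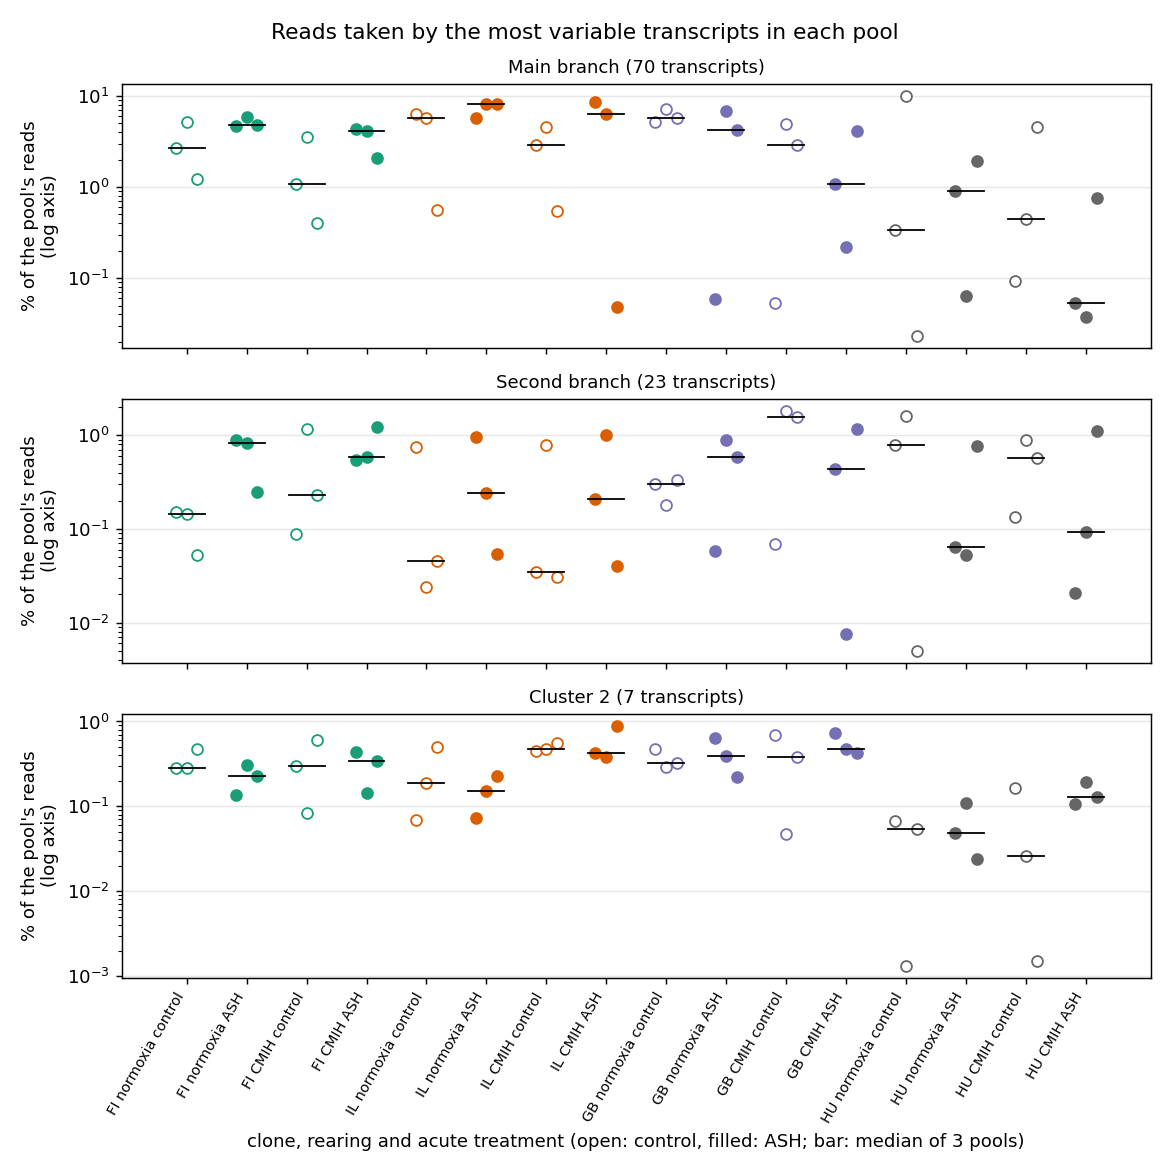
Percent of the reads of each pool (log axis) taken by the main branch, the second branch and cluster 2, by group, with open points for control pools, filled points for ASH pools and a bar at the median of the 3 pools. The main branch spans 0.0234 to 10.1% of reads in the HU normoxia controls, and the 6 FI ASH pools lie between 2.09 and 5.86%.

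The second branch was smaller and was not a fixed fraction of the main one. The ratio of their shares ranged from 0.40 to 234, with a median of 6.64, and the second branch exceeded the main branch in 6 pools. They came apart most in IL, where the median correlation between a transcript of one and a transcript of the other was 0.48, compared with 0.88 in GB, 0.69 in HU and 0.36 in FI. In IL normoxia control 8, normoxia ASH 3 and CMIH control 10, the main branch took 5.66, 8.15 and 2.86% of reads while the second branch took 0.0242, 0.0546 and 0.0344%. In the pool IL normoxia control 7, by contrast, both were high, at 6.34 and 0.754%.

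The highest-ranked transcript of the second branch, 73F1.71, ranged from 91.3 to 1418 CPM in FI (median 579), 0 to 1984 CPM in IL (median 650), 0 to 1526 CPM in GB (median 753) and 0 to 2207 CPM in HU (median 177). The clones reached similar highest levels. Another member, 15F10.123, had 127, 0 and 11.7 CPM in the IL normoxia controls, 268, 42.2 and 19.2 CPM in the normoxia ASH pools, 25.5, 251 and 28.8 CPM in the CMIH controls and 9.18, 253 and 7.43 CPM in the CMIH ASH pools. It was high in 1 pool of each of these groups, and in control 8 and ASH 3 of the normoxia series it was low although 36F4.51 had 2090 and 3068 CPM. A few transcripts of the main branch did the reverse, and were named after their values were seen. In IL, 18F7.81 had 1156, 6646 and 398 CPM in the normoxia controls, 836, 4134 and 12430 CPM in the normoxia ASH pools, 4005, 541 and 396 CPM in the CMIH controls and 5651, 2548 and 22.3 CPM in the CMIH ASH pools. In both normoxia groups its highest pool was the one where the second branch was lowest, which did not hold in the CMIH groups. The transcript 5F23.72 was likewise highest in normoxia control 8 with 3073 CPM, in normoxia ASH 3 with 1889 CPM and in CMIH control 10 with 2015 CPM.

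Opposition between the members was limited to few transcripts. Cluster 2 contained the 3 contig 18 transcripts 18F8.3, 18F7.58 and 18F7.59, the pair 0F17.45 and 36F5.43, and the single transcripts 11F9.33 and 16F15.67. Its share of reads was between 0.00133 and 0.895%, the lowest in HU normoxia control 5, where cluster 1 was highest, and the highest in IL CMIH ASH 6, where the main branch was at 0.0483%. The median correlation between a transcript of cluster 1 and one of cluster 2 was -0.43 in IL and -0.53 in HU, but -0.10 in GB and -0.13 in FI. Cluster 2 was also not a unit, since its subsets differed in their relation to cluster 1.

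The pair 0F17.45 and 36F5.43 was opposed to the main branch in all 4 clones. The correlation of 0F17.45 with the mean of the main branch was -0.84 for FI, -0.63 for IL, -0.90 for GB and -0.76 for HU, and that of 36F5.43 was -0.87, -0.47, -0.84 and -0.76. With each other they correlated at 0.79, 0.83, 0.97 and 0.93. Residuals of one pool share its total, and the part of this in the opposition was not tested. In GB, 0F17.45 had 1125, 22.2 and 354 CPM in the normoxia ASH pools, 928, 5.63 and 11.7 CPM in the CMIH controls and 514, 868 and 7.90 CPM in the CMIH ASH pools. In the same pools, 36F4.51 had 2.62, 9843 and 5662 CPM, then 10.5, 4937 and 2237 CPM, and then 2019, 7.12 and 2616 CPM. In each of these 3 groups the pool with the most of one transcript was the pool with the least of the other, and the reverse. The levels of 36F5.43 were 2016, 4.45 and 473 CPM, 3242, 11.3 and 5.84 CPM, and 2104, 3554 and 7.90 CPM. In FI, which was not used to form the pair, 0F17.45 had 212, 400 and 1302 CPM in the normoxia controls, and its high pool was the one where 36F4.51 was lowest, at 829 CPM.

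The contig 18 transcripts moved together and mostly apart from cluster 1. Their median correlation with one another was 0.98 in IL, 0.91 in GB, 0.92 in HU and 0.82 in FI, and with the transcripts of cluster 1 it was -0.36, 0.22, -0.37 and 0.03. In IL, 18F7.59 had no read in 6 of the 12 pools, including 5 of the 6 normoxia pools, and had 176 CPM in normoxia control 9. In CMIH the controls had 204, 3.63 and 2.62 CPM and the ASH pools 0, 1073 and 907 CPM. GB pools had 56.9 to 1703 CPM (median 1299), so that this transcript was read in every pool of GB. The HU pools had 0 to 174 CPM and the FI pools 0 to 1091 CPM. The transcript 11F9.33 was opposed to cluster 1 in IL, GB and HU, with correlations of -0.58, -0.60 and -0.80, but not in FI, with 0.04. For 16F15.67 the correlations were -0.17, -0.07, -0.48 and -0.11 in IL, GB, HU and FI.

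Other ways of dividing the 100 moved only transcripts of cluster 2. Dividing the 100 by their sign on the first axis of IL, GB and HU together gave the same 93 and 7 transcripts. Clustering in IL alone or HU alone also gave 93 and 7, whereas clustering in GB alone or FI alone left 97 transcripts in cluster 1 and 3 outside it. All 93 transcripts of cluster 1 stayed together in each of these divisions. When the 100 were chosen anew, cluster 2 had 0 transcripts without GB CMIH control 11 or with a pseudocount of 1, 12 without HU normoxia control 5, 13 without IL CMIH ASH 6, 14 with a minimum of 960 reads and 15 with a pseudocount of 50.

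The residual score of cluster 1 was related to the depth and the composition of the pools to different degrees in the 4 clones. Its correlation with log2 total reads was -0.16 for FI, 0.07 for IL, -0.34 for GB and 0.18 for HU (12 pools each). With the share of reads taken by the 30 most-read transcripts, which were not candidates, it was -0.62, -0.01, -0.48 and 0.49. The sign differed between clones, and the part of depth or composition in the covariation was not tested.

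The 100 transcripts lay on 27 of the 127 contigs with eligible transcripts. Contig 36 held 15 of them among 53 eligible transcripts, contig 13 held 15 of 87, contig 18 held 10 of 84 and contig 15 held 8 of 66. These 4 contigs held 48 of the 100 and 12.0% of the eligible transcripts. Of the 100, 70 shared contig and first gene number with another of the 100, compared with 7.61% of the 2312 other eligible transcripts that shared it with one of the 100. The 6 eligible transcripts numbered 36F4 were all among the 100 and all in the main branch. Neighbours did not always move together. Of the transcripts numbered 18F7, 3 were in the main branch and 2 in cluster 2, and of those numbered 36F5, 3 were in the main branch and 36F5.43 was in cluster 2. The 100 were shorter than the eligible transcripts, with a median of 1077 bases against 2190.5 bases as computed from reads and RPKM, and they had no read in a median of 7.5 pools against 1.

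Some pairs of these transcripts had counts in a nearly constant ratio, and whether they are copies of a gene, overlapping gene models or separate genes was not tested, since no sequence was used here. The counts of 168F0.50 and 23F8.13, which had 1776 and 1777 reads, were nearly equal in every pool (chi-square per degree of freedom 0.000583). The counts of 13F14.21 and 13F14.75 (1846 and 1817 reads), of 96F0.113 and 83F1.68 (1334 and 868 reads) and of 168F0.76 and 23F9.26 (1808 and 1612 reads) also stood in a constant ratio within counting error, with 0.0902, 0.396 and 0.416. Each of these pairs is reported as uncertain. The same reads may have been counted for both members or divided between them, which was not tested. The members of such a pair may therefore be a single signal.

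Other eligible transcripts followed the same pattern below the limit. Outside the 100, 52 transcripts correlated with the mean of cluster 1 above 0.7 in each of IL, GB and HU, and 48 of the 52 had the same sign in FI, with a median of 0.62. Only 4 correlated below -0.7 in the 3 clones, of which 3 had the same sign in FI.

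Whether ASH or CMIH moved these transcripts was tested with edgeR across all 6050 transcripts, with Benjamini-Hochberg adjustment. The rule chose the 100 for a large spread between replicates, and these tests judge an effect against that spread. Their median biological coefficient of variation was 1.34, against 0.29 for all tested transcripts. Few calls among the 100 therefore follow in part from the choice, and counts below the share of all transcripts do not show that an effect is absent. For ASH averaged over clones and rearing, 0 of the 100 were past the threshold, where 0.595% of all transcripts were, and 1 had an unadjusted p under 0.05 (5.69% of all). Fold changes were positive for 54 of the 100, and for 41 when libraries were scaled by size alone, and ASH thus had no common direction. The test of ASH together with its interactions called 0 of the 100 (0.545% of all transcripts), with 4 at an unadjusted p under 0.05 (4.40% of all). DESeq2 also called 0 in both, with 1 and 2 at an unadjusted p under 0.05.

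For CMIH averaged over clones and ASH, 0 of the 100 were past the threshold (0.0165% of all transcripts). At an unadjusted p under 0.05 there were 20 in edgeR and 18 in DESeq2, compared with 6.28% of all transcripts in edgeR. The fold changes of all 70 transcripts of the main branch were negative, with a median of -0.81, and those of 20 of the 23 of the second branch were positive, with a median of 0.65. Over all transcripts the median was 0.03. Because the transcripts of a branch rise and fall together, these signs and counts are not independent, and the same holds within clones. CMIH was applied to whole tanks, with fewer tanks per rearing than pools per group. All tests of CMIH here take pools as replicates, and a difference between tanks cannot be told apart from CMIH. CMIH tested jointly with its interactions called 0 (0.0165%), with 4 at an unadjusted p under 0.05 (4.35% of all), and DESeq2 called 0 with 6. The joint test of the interaction between CMIH and ASH called 0 (0.00%), with 0 at an unadjusted p under 0.05 in edgeR (2.45% of all) and in DESeq2.

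Within the clones, CMIH called 0 of the 100 in each (0.00% in each). At an unadjusted p under 0.05 there were 31 transcripts for FI, 3 for IL, 12 for GB and 6 for HU, while the shares of all transcripts were 4.50, 6.99, 5.12 and 2.78%. The median log2 fold change of the main branch was -0.71 for FI, -0.63 for IL, -0.98 for GB and -1.76 for HU. That of the second branch was 1.33, 0.22, 1.86 and -0.13. The branches therefore had opposite median signs in FI, IL and GB but not in HU. These tests within clones were added after the data were seen, and DESeq2 was not run for them.

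**Figure D5:**
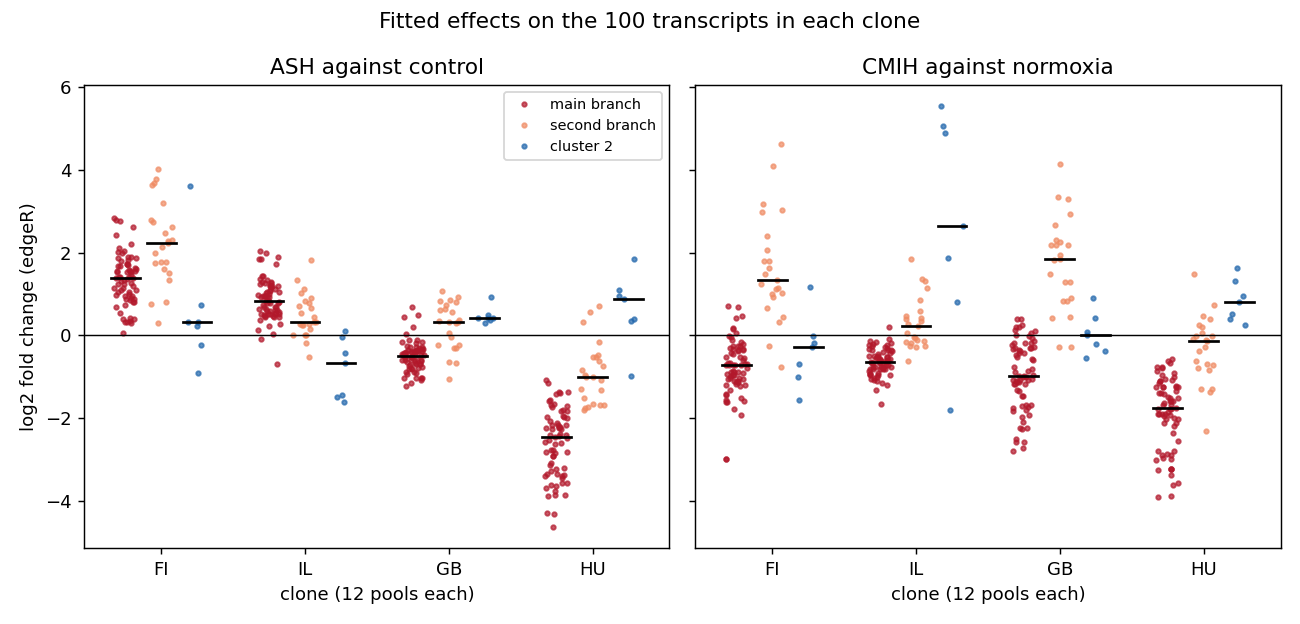
Log2 fold change of each of the 100 transcripts for ASH against control and for CMIH against normoxia in each clone (edgeR), with points by branch and a bar at the median. Under ASH the main branch lies above 0 in FI and below 0 in HU. Its median is 0.83 in IL, with 68 of 70 positive, and -0.49 in GB, with 5 of 70 positive. Of all these fold changes only 15, all for ASH in FI, passed the threshold.

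The ASH effect within clones had different directions. In FI, 15 of the 100 transcripts were past the threshold and all 15 were higher after ASH, where 1.40% of all transcripts were past it in either direction and 1.14% were past it and higher. Of the 100, 98 had a positive fold change, with a median of 1.49 compared with 0.04 over all transcripts, and 67 had an unadjusted p under 0.05 (13.8% of all). The main branch had 9 of 70 called and a median of 1.39, the second branch had 6 of 23 and a median of 2.22, and cluster 2 had 0 of 7, with 2 at an unadjusted p under 0.05. Members of a branch move together, so that their calls are not independent.

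The called transcripts with the smallest p were 18F20.27, 13F14.21, 13F14.75, 15F10.123 and 79F0.63. In FI, 18F20.27 had 106, 0 and 59.2 CPM in the normoxia controls, 1065, 382 and 265 CPM in the normoxia ASH pools, 114, 440 and 120 CPM in the CMIH controls and 526, 834 and 809 CPM in the CMIH ASH pools. One CMIH control reached into the range of the ASH pools. Its log2 fold change was 2.80 (SE 0.52, edgeR adjusted p = 0.00387). For 13F14.21 the controls had 106, 33.3 and 118 CPM in normoxia and 68.5, 97.7 and 9.96 CPM in CMIH, and the ASH pools had 577, 164 and 142 CPM in normoxia and 310, 664 and 209 CPM in CMIH. All 6 ASH pools were above all 6 controls. However, 3 reads amounted to 178 CPM in normoxia control 9 and to 147 CPM in CMIH control 11, above the lowest ASH value of 142 CPM. The separation may therefore lie within the counting error of the shallow controls. The log2 fold change was 2.77 (SE 0.55, edgeR adjusted p = 0.00662), and 13F14.75, with nearly the same counts, had 2.85 (SE 0.58, edgeR adjusted p = 0.00907). The transcript 15F10.123 had 0, 33.3, 0, 68.5, 293 and 19.9 CPM in the controls and 322, 218, 70.8, 155, 230 and 600 CPM in the ASH pools, and its groups overlapped. Its log2 fold change was 3.19 (SE 0.68, edgeR adjusted p = 0.0139). The transcript 79F0.63 had 381, 533, 59.2, 91.3, 244 and 89.7 CPM in the controls and 1316, 1036, 513, 279, 771 and 926 CPM in the ASH pools, with a log2 fold change of 2.11 (SE 0.46, edgeR adjusted p = 0.0170). Its groups also overlapped. Of the 100 transcripts, 3 had all FI ASH pools above all FI controls, namely 13F14.21, 13F14.75 and 6F30.164, where 0.661% of all transcripts did. The limit from shallow controls holds for 13F14.75 as well.

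The count of 15 in FI rested on single libraries. It was 2 without normoxia ASH pool 1, 3 without normoxia control 9, 5 without normoxia control 7, 7 without CMIH control 12, 23 without CMIH ASH pool 4 and 50 without CMIH control 11. It was 6 when libraries were scaled by size alone, which put the median of all transcripts at -0.13. The count was 4 with a minimum of 480 reads, 9 in DESeq2, 21 with TMMwsp scaling and 40 with a replicate block. Over all transcripts, library size alone called 68, and the other settings called 73 (of 2442 tested), 90, 127 and 154. In the replicate block, the place of a pool in the number order of its group stood for its library. The residual score of cluster 1 had an SD of 0.27 among the 6 FI ASH pools and 1.27 among the 6 FI controls.

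The other clones had no transcript of the 100 past the threshold. The rule chose the 100 for their spread in these clones and not in FI. Their median SD was 2.29 in IL, 2.32 in GB and 2.38 in HU, against 1.43 in FI. Calls were thus less likely in these clones by choice, and the counts do not compare the clones fairly. In IL, ASH called 0 (0.0826% of all transcripts), with 0 at an unadjusted p under 0.05 (6.35% of all), and 90 fold changes were positive with a median of 0.69. In GB it called 0 (0.182%), with 0 at an unadjusted p under 0.05 (3.67% of all), and 27 were positive with a median of -0.37. In HU it called 0 (0.0496%), with 23 at an unadjusted p under 0.05, all lower (3.49% of all transcripts in either direction, 1.49% lower), and 9 were positive with a median of -2.09. DESeq2 called 0 in each, with 1, 0 and 16 at an unadjusted p under 0.05. All 70 transcripts of the main branch had a negative fold change in HU and a positive one in FI. Their median in HU was -2.46. The median share of reads of the main branch in HU was nevertheless 0.389% in the controls and 0.410% after ASH (6 pools each). Its highest shares in HU were 10.1% in normoxia control 5 and 4.57% in CMIH control 9. The fit was not repeated without both of these control pools, and their part in the negative fold changes was not tested. The median over both rearings was not lower after ASH, but the rearings differed. In normoxia the middle pool of 3 was at 0.336% in the controls and 0.909% after ASH. In CMIH the middle pool was at 0.442% in the controls and 0.0538% after ASH. In IL, GB and HU, 0 of the 100 had all ASH pools on one side of all controls.

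The difference between clones did not pass the threshold. The joint test of the interaction between ASH and habitat called 0 of the 100 (0.00% of all transcripts), with 12 at an unadjusted p under 0.05 in edgeR, all with a higher fold change in FI and IL, and 13 in DESeq2. Of all transcripts, 4.00% were under it in edgeR, 1.62% in that direction. The coefficient, which is the ASH log2 fold change in FI and IL minus the average of both habitats, was positive for 97 of the 100 with a median of 1.01, against -0.01 over all transcripts. The joint test of ASH by clone, added after the data were seen, called 0 (0.0331%), with 9 at an unadjusted p under 0.05 (8.94% of all). The ASH effect in FI against the mean of the other clones, also added, called 0 (0.165%), with 6 at an unadjusted p under 0.05 (13.1% of all), and the lowest adjusted p from edgeR was 0.26. DESeq2 was not run for the added tests.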

How the data were processed

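Nanopore cDNA reads were base-called with Guppy and counted by the authors against the *D. magna* reference transcriptome, reduced to the longest isoform of each gene. Transcripts with fewer than 72 reads in all had been removed before deposit. SAMtools is named in the submitters' processing notes. The deposited tables hold raw read counts and RPKM values per transcript and pool. Counts were used for all levels and tests, and the deposited RPKM served only, together with the counts, to compute transcript length. Strand-specific counting is not given in the sources used here, and reads of near-identical or overlapping models cannot be assigned with certainty. Rows of the long-form table were matched to pools by their sample names, which follow the titles in the labels.

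CPM was computed on the total count of each pool. Residuals were log2(CPM + 10) minus the mean of the 3 pools of a group. Correlations of residuals are descriptions with no test, and transcripts in them are not independent replicates. Named transcripts were the 5 of highest rank, the 5 closest to the mean of each cluster, those beside the limit of the ranking, the first 8 members by gene number on contig 36, and up to 5 called in each test. The choice of the 100 transcripts and of the lists was made with earlier results of these data known.

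Tests used edgeR 4.0.16 (quasi-likelihood F tests, TMM scaling, R 4.3.3) on the counts of all 6050 transcripts, with Benjamini-Hochberg adjustment and a threshold of 0.05, with clone as a block where clones were combined. By the study's methods, the sampled block had fewer tanks per rearing than a group had pools. The labels do not say which tank a pool came from. The p-values therefore measure the spread between these pools, which may be technical in part. For CMIH they do not measure the spread between tanks. Alternatives were other scaling (TMMwsp, library size alone), a minimum of 480 reads, DESeq2 1.42.0, a replicate block and leaving out each pool. The tests and the clustering were checked on simulated data. Python 3.11.15 with numpy 2.4.6, pandas 2.3.3, scipy 1.17.1 and matplotlib 3.10.9 was used for the rest.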

Additional observations from a re-analysis of the deposited data

How the results depend on the processing

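Between 72 and 98 of the 100 transcripts were chosen again under other pseudocounts, read minimums, scalings and spread measures, and 81 to 100 when 1 pool was left out. The size of cluster 1 was 85 to 97 under these settings and 87 to 95 without 1 pool. The size of cluster 2 was 0 with a pseudocount of 1, 15 with a pseudocount of 50, 14 with a minimum of 960 reads and 0 when made from GB alone. Without 1 pool it was 0 to 13, with 0 without GB CMIH control 11, 12 without HU normoxia control 5 and 13 without IL CMIH ASH 6. The cause was not tested. The median correlation in cluster 1 without 1 pool was 0.24 to 0.54 for FI, 0.68 to 0.83 for IL, 0.89 to 0.95 for GB and 0.76 to 0.86 for HU.

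The number of the 100 called for ASH in FI was 6 with library size alone, 4 with a minimum of 480 reads, 9 in the DESeq2 Wald test and 21 with TMMwsp. Over all transcripts, these settings called 68, 73 (of 2442 tested), 90 and 127. Without 1 FI pool, 2 to 50 of the 100 and 22 to 159 of all transcripts were called. With the 9 FI pools of at least 25000 reads, an alternative chosen after seeing the data, 13 of the 100 and 54 of all transcripts were called. The 6 tests over all clones and the tests of ASH in IL, GB and HU called 0 of the 100 under every alternative that was run and without any 1 pool. The added tests of ASH between clones were repeated with library size alone only, where they also called 0, and the added tests of CMIH within clones were not repeated.

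By the study's methods, each clone had 3 replicate libraries with all 4 treatments in each, which could serve as a block. The labels do not say which pools shared a library, and the place of a pool in the number order of its group was used in its stead. Residuals of pools in the same place correlated at 0.01 for FI, 0.04 for IL, 0.12 for GB and -0.16 for HU on average, and the main tests have no block. With that place as a replicate block, ASH in FI called 40 of the 100 and 154 of all transcripts. In that setting 76 of the 100 were chosen again, and the median correlation in cluster 1 was 0.46 in IL and 0.24 in FI. Depth limited FI and HU most, where a transcript with no read may have up to 178 CPM in the shallowest pool.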

Other observations

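The 4 transcripts outside the 100 that correlated below -0.7 with cluster 1 in IL, GB and HU were 4F34.19, 16F23.139, 35F6.58 and 42F7.162. The correlations of 16F23.139 were -0.88 in IL, -0.89 in GB, -0.88 in HU and -0.64 in FI, which was not used to find it. It ranged from 285 to 1105 CPM in IL, 50.7 to 1452 CPM in GB, 13.3 to 618 CPM in HU and 97.7 to 799 CPM in FI. The range of 42F7.162 was narrow, at 1040 to 2180 CPM in IL and 449 to 953 CPM in GB, and its correlation in FI was 0.00. The CPM values of a pool share its total, and the part of this in the 4 correlations was not tested.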
